A study of Mus musculus with 6 samples.

Results

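The genes of 10 transcription factors that govern fat cell formation were followed in mouse primary adipocytes with and without miR-182 overexpression. They are Cebpb, Cebpd, Klf4, Pparg, Cebpa, Rxra, Klf15, Zfp423, Ebf1 and Ebf2, taken by symbol from the 22609 genes listed in each sample, and all 10 were among the 13117 genes with enough reads to be tested. The cells came from male C57BL6 mice labelled as 3 weeks old: the stromal vascular fraction of inguinal white fat was isolated, cultured and differentiated, then transfected by electroporation. The 3 control samples are labelled as carrying a control vector and the 3 miR182 samples as overexpressing miR182. The methods of the study instead describe a synthetic miRNA mimic delivered with a lipid reagent and another age of mice, and neither source says whether the samples of a group came from separate mice or cultures, so p values measure the spread between these samples, which may be technical. Poly(A) RNA was sequenced in strand-specific libraries, with 25869810 to 28796712 reads counted on genes per sample.

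In adipogenesis these factors act in sequence. Cebpb and Cebpd, which encode C/EBPβ and C/EBPδ, are induced early by the hormonal differentiation cocktail, and Klf4 belongs to the same early phase. They are followed by Pparg and Cebpa, whose products maintain each other's expression and drive the genes of lipid storage and insulin response in the mature fat cell. PPARγ binds DNA as a dimer with RXRα, the product of Rxra. Klf15 is a late factor of the same program, while Zfp423, Ebf1 and Ebf2 mark or instruct cells committed to the fat lineage, with Ebf2 best known from brown and beige fat. A miRNA pairs through its seed, bases 2 to 8, with target mRNAs, most often in the 3′ UTR, and lowers their stability or translation.

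The late factors Cebpa, Pparg and Klf15 were lower with miR-182 overexpression, while the early factors Cebpd and Klf4 moved in opposite directions. Cebpa, Klf15, Pparg, Ebf1 and Klf4 fell, Cebpd and Ebf2 rose, and Cebpb, Zfp423 and Rxra did not pass the test. The changes were small: the largest, that of Cebpa, was to 0.679 of the control level. In the quasi-likelihood test of edgeR, with p values adjusted over all genes tested by the Benjamini-Hochberg method, 7 of the 10 genes had an adjusted p under 0.05, 2 higher and 5 lower, beside 46.7% of all genes tested in either direction, 23.2% higher and 23.5% lower. None of the 10 also changed by 1.5-fold, a limit that 7.45% of all genes tested passed together with the adjusted p. The median absolute log2 fold change was 0.22 for the 10 genes and 0.16 for all genes tested.

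**Figure D1:**
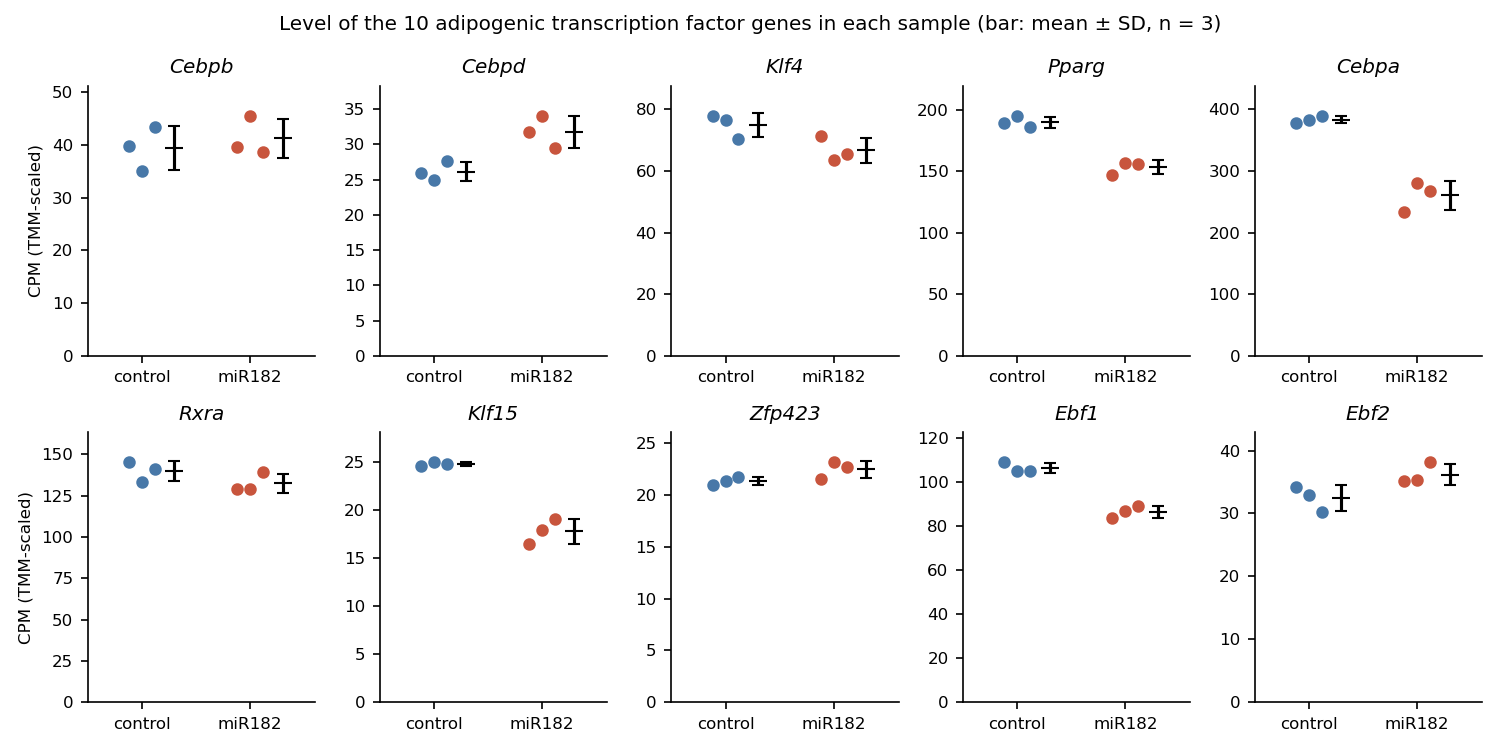
Level of each of the 10 genes in the 3 control (blue) and 3 miR182 (red) samples, in CPM (reads scaled to a common library size by the TMM method), with the mean and SD of each group in black and every axis starting at 0. Cebpa, Pparg, Klf15 and Ebf1 lie lower in every miR182 sample than in every control sample, Cebpd and Ebf2 lie higher, and the groups of Cebpb, Klf4, Zfp423 and Rxra overlap.

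Cebpa encodes C/EBPα, a master factor of the mature fat cell, from chr7:35119293-35121928 on the plus strand of GRCm38. It had 378, 382 and 389 CPM (reads scaled to a common library size) in control samples 1 to 3 and 234, 279.6 and 267 CPM in the miR182 samples, so the groups did not overlap. The mean fell from 383 ± 5.31 CPM (SD, n = 3) to 260.1 ± 23.6 CPM (SD, n = 3), a log2 fold change of -0.56 (standard error, SE, 0.049; 95% interval -0.66 to -0.45, edgeR adjusted p = 4.84e-07). A larger absolute change was seen in 9.53% of the genes tested. The miR182 samples varied more than the controls, with a coefficient of variation of 9.06% against 1.39%, and miR182 sample 1 was the lowest. Without that sample the log2 fold change was -0.49. An antisense gene, Gm45091, covers 51 of its 2636 exon bases. These are bulk samples, in which fewer fat cells and less of an mRNA per fat cell cannot be told apart.

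Pparg encodes PPARγ, the nuclear receptor required for fat cell formation, and lies at chr6:115360951-115490399 on the plus strand of GRCm38. It had 189, 195 and 186 CPM in the control samples and 147, 157 and 156 CPM in the miR182 samples. Every miR182 value lay below every control value. The mean fell from 189.7 ± 4.47 CPM (SD, n = 3) to 153 ± 5.53 CPM (SD, n = 3), with a log2 fold change of -0.31 (SE 0.033, edgeR adjusted p = 3.38e-06). Of all genes tested, 25.1% changed by more. The counts are per gene and do not separate the transcripts that encode PPARγ1 and PPARγ2.

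Rxra (chr2:27676440-27762957, plus strand), the gene of the dimer partner of PPARγ, did not pass the test. It had 145, 133 and 141 CPM in the control samples and 129, 129 and 139 CPM in the miR182 samples, and the groups overlapped. Its log2 fold change was -0.075 (95% interval -0.16 to 0.0091, edgeR adjusted p = 0.135). Leaving out control sample 2 or miR182 sample 3 gave -0.11 in each case and an adjusted p of 0.0451 and 0.0343 from edgeR. Reads on Pparg per read on Rxra went from 1.3, 1.47 and 1.32 in the control samples to 1.14, 1.22 and 1.12 in the miR182 samples. The ratio of Pparg to Rxra was thus lower in every miR182 sample.

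Klf15 (chr6:90462576-90475238, plus strand) encodes a zinc finger factor that is induced late in fat cell formation and is known to act on the glucose transporter gene Slc2a4. It had 24.5, 24.9 and 24.7 CPM in the control samples and 16.4, 17.9 and 19 CPM in the miR182 samples. The controls were nearly equal and the miR182 samples were all lower. The mean fell from 24.7 ± 0.207 CPM (SD, n = 3) to 17.8 ± 1.33 CPM (SD, n = 3), with a log2 fold change of -0.48 (SE 0.062, edgeR adjusted p = 2.39e-05), and 12.8% of the genes tested changed by more. Behind these values stood 471 to 650 reads per sample. Slc2a4 itself, which encodes GLUT4, fell as well, from 149 ± 8.71 CPM (SD, n = 3) to 111 ± 13.5 CPM (SD, n = 3), with an edgeR adjusted p of 0.000111. It was named for its link to Klf15 after its value was seen.

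The early C/EBP genes did not follow Cebpa. Cebpd (chr16:15887286-15891031, plus strand) had 25.9, 24.9 and 27.6 CPM in the control samples and 31.7, 34 and 29.4 CPM in the miR182 samples, with no overlap. Its log2 fold change was 0.28 (SE 0.062, edgeR adjusted p = 0.00211). Cebpb (chr2:167688915-167690418, plus strand) had 39.8, 35 and 43.4 CPM in the control samples and 39.6, 45.5 and 38.6 CPM in the miR182 samples. The groups overlapped, and its log2 fold change of 0.064 (95% interval -0.098 to 0.23, edgeR adjusted p = 0.516) changed sign, to -0.015 or -0.0064, when control sample 2 or miR182 sample 2 was left out. In GENCODE M21, 562 of the 3746 exon bases of Cebpd and 312 of the 1504 of Cebpb are also covered by a gene on the opposite strand, Spidr and Tmem189. Whether counting used the strand is not given in the sources used here, so reads of these partners cannot be told apart from their own.

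Klf4 (chr4:55527143-55532466, minus strand), known in this setting as an early activator of Cebpb, fell slightly. It had 77.8, 76.4 and 70.3 CPM in the control samples and 71.2, 63.4 and 65.6 CPM in the miR182 samples. The lowest control and the highest miR182 sample overlapped. Its log2 fold change was -0.16 (SE 0.049, edgeR adjusted p = 0.013). The adjusted p rose to 0.0684, 0.0556 and 0.0746 without control sample 1, control sample 2 and miR182 sample 2.

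The factors of the committed progenitor moved apart. Ebf1 (chr11:44617317-45008091, plus strand), an early B cell factor that promotes fat cell formation, had 109, 105 and 105 CPM in the control samples and 83.8, 86.9 and 89.1 CPM in the miR182 samples, with no overlap. It fell by 0.30 on the log2 scale (SE 0.034, edgeR adjusted p = 6.76e-06). Ebf2 (chr14:67233292-67430918, plus strand), its brown and beige fat relative, had 34.2, 32.9 and 30.2 CPM in the control samples and 35.1, 35.3 and 38.1 CPM in the miR182 samples. It rose by 0.16 on the log2 scale (SE 0.056, edgeR adjusted p = 0.0339), with a narrow gap between the groups. The adjusted p of Ebf2 was 0.0625, 0.158 and 0.123 without control sample 2, control sample 3 and miR182 sample 3, and 0.0675 with the replicate number as a block. An antisense gene, Gm10860, covers 424 of the 6928 exon bases of Ebf2.

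Zfp423 (chr8:87661810-87959595, minus strand), which encodes a zinc finger factor of committed preadipocytes, did not pass the test. It had 20.9, 21.3 and 21.7 CPM in the control samples and 21.5, 23.1 and 22.7 CPM in the miR182 samples. Its log2 fold change was 0.077 (95% interval -0.041 to 0.20, edgeR adjusted p = 0.275), and the groups overlapped. Over the 10 genes, the groups did not overlap for 6, beside 54.8% of all genes tested.

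**Figure D2:**
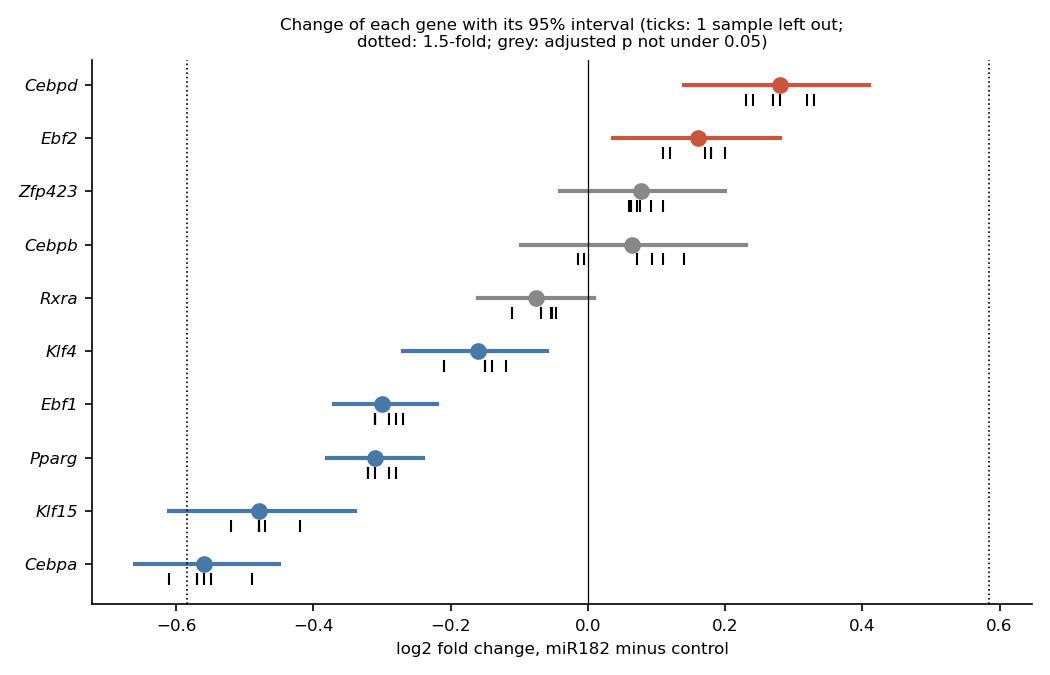
Log2 fold change of each gene, miR182 minus control, with its 95% interval from edgeR in blue for lower, red for higher and grey where the adjusted p was not under 0.05. Ticks under each line show the 6 fits that left out 1 sample, and dotted lines mark 1.5-fold. In every such fit Cebpa, Klf15, Pparg, Ebf1, Klf4 and Rxra stay below 0 and Cebpd, Ebf2 and Zfp423 stay above 0. Only the ticks of Cebpb cross 0, and 1 tick of Cebpa lies past the 1.5-fold line.

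The ratios of factors that act together were compared as well, since ratios taken within a sample do not depend on how libraries are scaled. Reads on Cebpa per read on Cebpb were 9.5, 10.9 and 8.94 in the control samples and 5.91, 6.15 and 6.9 in the miR182 samples, a log2 difference of -0.63. The ratio of Cebpa to Cebpd differed more, going from 14.6, 15.3 and 14.1 to 7.38, 8.23 and 9.06, a log2 difference of -0.84. Cebpa was lower relative to Pparg too, with ratios of 2, 1.97 and 2.09 in the control samples and 1.59, 1.78 and 1.71 in the miR182 samples. The ratio of Ebf1 to Ebf2 went from 3.19, 3.19 and 3.47 to 2.39, 2.46 and 2.34. Reads on Zfp423, the progenitor factor, per read on Pparg were higher, at 0.146, 0.147 and 0.146 in the miR182 samples against 0.111, 0.109 and 0.117 in the control samples. For Klf15 per read on Klf4 the values were 0.315, 0.326 and 0.351 in the control samples and 0.23, 0.282 and 0.29 in the miR182 samples. The groups did not overlap in any of the 7 pairs compared, Pparg with Rxra included. Single genes did not overlap in 54.8% of those tested, and the share over all gene pairs was not computed. Each pair gave p = 0.1 in a two-sided exact permutation test (0.1 after Benjamini-Hochberg adjustment), the smallest p that 3 samples against 3 allow. Cebpa and Pparg recur among the pairs and each ratio restates the changes of its genes, so the 7 are not separate observations.

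To compare levels between genes, CPM were divided by the exon length of each gene in kilobases. In the control samples Cebpa was the highest at 145 ± 2.02 CPM per kb (SD, n = 3), followed by Pparg at 64.2 ± 1.51 CPM per kb (SD, n = 3). Cebpb, Rxra and Klf4 came next at 26.2 ± 2.83, 25.5 ± 1.14 and 24.5 ± 1.31 CPM per kb (SD, n = 3 each), and these neighbours overlapped sample by sample. Cebpb and Rxra exchanged places when the longest protein-coding transcript was used as the length. Ebf1 at 10.9, Klf15 at 8.84, Cebpd at 6.98, Ebf2 at 4.68 and Zfp423 at 3.79 CPM per kb followed, each control sample above every control sample of the next gene. Ranked by the mean over all 6 samples among 12962 genes with a length, Cebpa stood at percentile 98 and Zfp423 at percentile 40.7. In the miR182 samples Cebpd, at 8.46 ± 0.605 CPM per kb (SD, n = 3), lay above Klf15, at 6.36 ± 0.476 CPM per kb (SD, n = 3). With the longest protein-coding transcript as the length this order was the reverse, with Klf15 at 11.5 ± 0.859 and Cebpd at 8.46 ± 0.605 CPM per kb (SD, n = 3 each).

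Within their families Cebpa, Pparg and Ebf1 took a lower share of the reads per exon length in every miR182 sample than in every control sample. Of the sum over Cebpa, Cebpb, Cebpd and Cebpg, Cebpa took 74.9%, 76.2% and 74.3% in the control samples and 62%, 64.3% and 65.3% in the miR182 samples. Cebpe, without reads, and Ddit3, without a matched length, were left out. The share of Cebpb was 13.5% ± 1.19 (SD, n = 3) in the control samples and 17.8% ± 1.02 (SD, n = 3) in the miR182 samples, that of Cebpd 3.61% ± 0.108 and 5.49% ± 0.419 (SD, n = 3 each), and that of Cebpg 7.73% ± 0.288 and 12.9% ± 0.94 (SD, n = 3 each). As shares are parts of a whole, one can be higher because another is lower. The level of Cebpb itself did not pass the test (log2 fold change 0.064, edgeR adjusted p = 0.516). Of the 4 EBF genes, Ebf1 took 59% ± 0.832 (SD, n = 3) in the control samples and 53.4% ± 0.3 (SD, n = 3) in the miR182 samples, while Ebf2 took 25.3% ± 0.91 and 31.4% ± 0.682 (SD, n = 3 each). Pparg took 88.1% ± 0.49 (SD, n = 3) of the 3 PPAR genes in the control samples and 84.8% ± 0.174 (SD, n = 3) in the miR182 samples. These shares did not overlap between the groups (exact permutation p = 0.1 each, the smallest possible). The share of Rxra among the RXR genes was 63.7% ± 1.01 (SD, n = 3) and 61.9% ± 1.55 (SD, n = 3), with overlap (exact permutation p = 0.2).

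**Figure D3:**
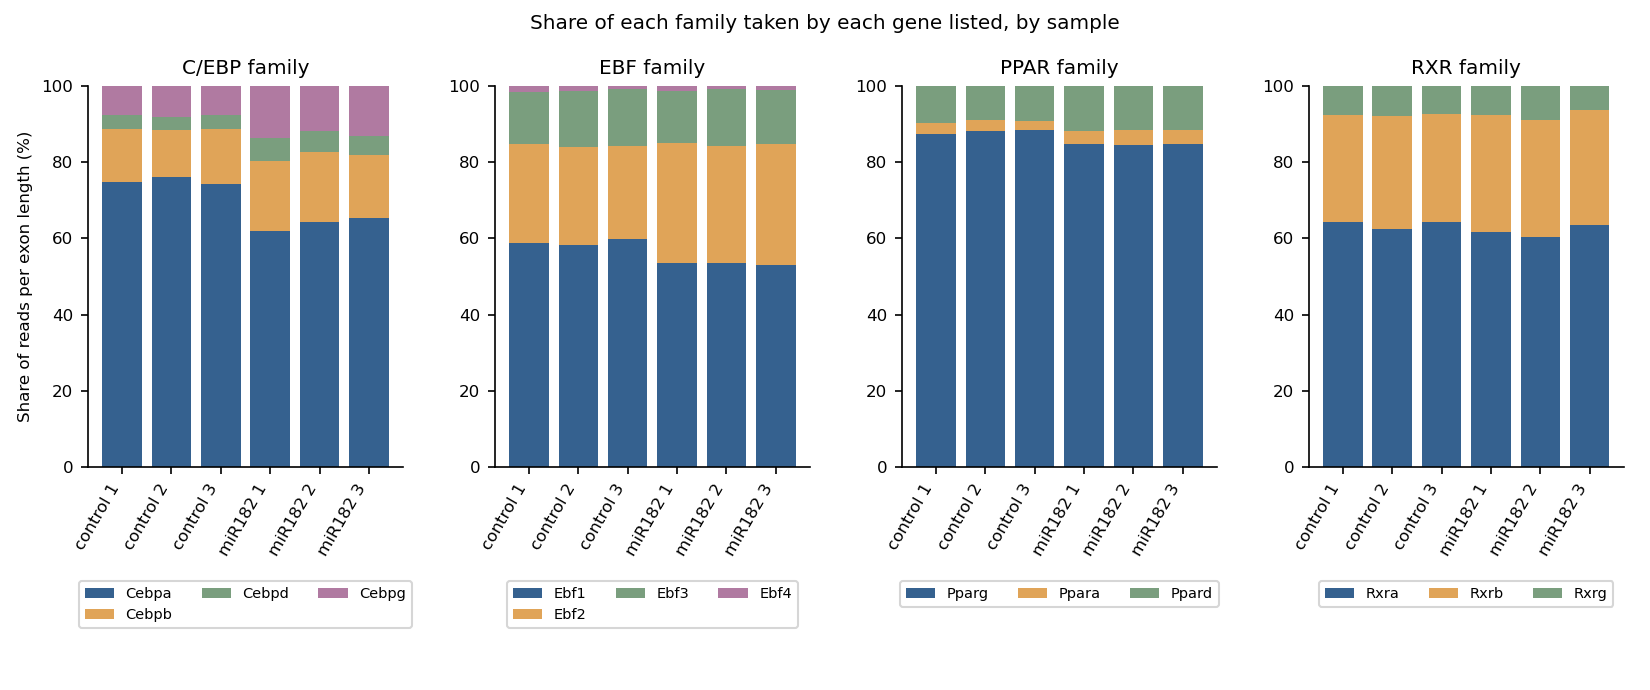
Share of the summed reads per exon length, in percent, taken by each gene named under the panel in each of the 6 samples, as stacked bars, with Cebpe and Ddit3 left out of the C/EBP panel. The blue segments of Cebpa, Ebf1 and Pparg are shorter in the 3 miR182 samples than in the 3 control samples, and those of Rxra overlap between the groups.

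The other members of these families were tested to see whether paralogs moved alike. Of 9 relatives tested, Cebpg rose and Ebf3 and Zfp521 fell. The 33.3% that passed is below the 46.7% of all genes tested. Cebpg, which encodes a C/EBP protein known as a dimer partner of the others, had 82.3, 86 and 83.6 CPM in the control samples and 111, 110.3 and 114 CPM in the miR182 samples, a log2 fold change of 0.41 (edgeR adjusted p = 1.49e-07). Its controls and miR182 samples were far apart. Ebf3 and Zfp521, the latter encoding a repressor of Zfp423 and Ebf1, fell by 0.17 and 0.16 on the log2 scale (edgeR adjusted p = 0.0341 and 0.00463), and the call of Ebf3 was lost in DESeq2 (adjusted p = 0.0743). Ppara, Ppard, Rxrb, Rxrg, Ddit3 and Ebf4 did not pass the test, with log2 fold changes of 0.15, 0.083, 0.055, -0.044, 0.051 and -0.47. Ebf4 rested on 11 to 24 reads per sample. Cebpe had no reads in any sample.

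The mature form of the introduced miRNA cannot be read from these libraries, since mature miRNAs carry no poly(A) tail. The Mir182 gene had 0 reads in each of the 6 samples, so the overexpression is known from the labels and not from these counts. The mature sequence that RefSeq gives for mmu-miR-182-5p, at chr6:30165962-30165986 on the minus strand of GRCm38.p6, is printed first, followed by that of mmu-miR-30a-5p (chr1:23272274-23272295, plus strand), with the seed in capitals. The second is shown because the sequence printed for miR-182-5p in the methods of the study begins with the seed of the miR-30 family and not with that of miR-182-5p, so both seeds were searched. It stands for that seed only, as its later bases differ from those the study printed.
mmu-miR-182-5p: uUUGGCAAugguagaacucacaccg
mmu-miR-30a-5p: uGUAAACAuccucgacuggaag

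A match to bases 2 to 8 of miR-182-5p, the letters TTGCCAA on the mRNA strand, was present in the longest annotated 3′ UTR of 5 of the 10 genes and of 12.5% of 12498 tested genes with a 3′ UTR. The genes that hold it are Cebpa, Klf15, Ebf1, Ebf2 and Cebpd, each with 1 match. The sites are printed with the match in capitals and 10 bases on either side, to show the base that follows each match. They lie on the plus strand of GRCm38 at chr7:35121513-35121539, chr6:90475195-90475221, chr11:45006191-45006217, chr14:67429648-67429674 and chr16:15889602-15889628.
Cebpa: gctctgattcTTGCCAAactgagactc
Klf15: tatatttactTTGCCAAtaaaaagagg
Ebf1: gattttttttTTGCCAAagttgtttta
Ebf2: cttgcttggcTTGCCAAtaggatgtca
Cebpd: acacagccccTTGCCAAgcgcacagat

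The match is followed by an A, which lengthens it to the 8-base form TTGCCAAA, in Cebpa and Ebf1, while 5.25% of the 12498 genes hold that form. A shorter form with that A, TGCCAAA, was in the same 2 of the 10 genes and in 14.3% of the 12498. Of the 5 genes with a match, Cebpa, Klf15 and Ebf1 fell and Ebf2 and Cebpd rose. Of the 5 without one, Pparg and Klf4 fell and Rxra, Cebpb and Zfp423 did not pass the test. The site of Klf15 starts at base 1068 of a 3′ UTR of 1084 bases, next to its end. The 3′ UTRs searched ran from 204 bases in Pparg to 3343 in Ebf1, with a median of 1319 for the 10 genes and 1201 for all 12498. Those with a match measured 1084, 1555, 2796, 2900 and 3343 bases, and those without one 204, 506, 668, 982 and 3269 bases. The part of this length in the number of genes with a match was not tested. The match to the miR-30 seed, TGTTTAC, was present in Ebf2 at chr14:67430818-67430844 and in 16.4% of the 12498 genes. A match is a description of these letters and does not show that the site was used.

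**Figure D4:**
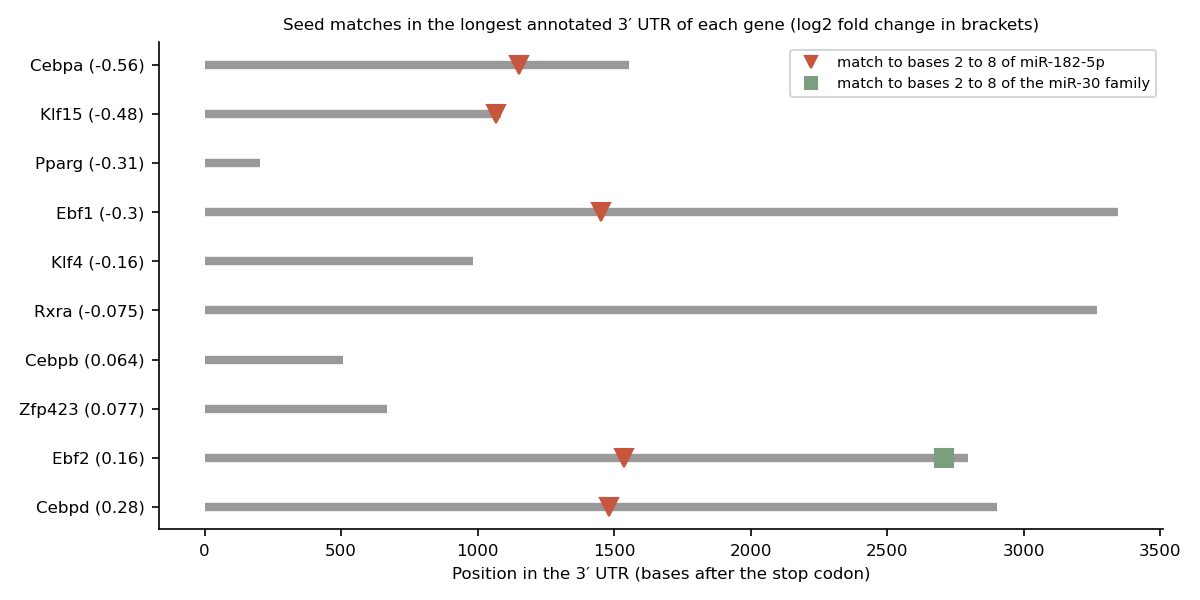
Position of seed matches along the longest annotated 3′ UTR of each gene, in bases after the stop codon, with grey bars drawn to the length of the 3′ UTR and the log2 fold change of the gene in brackets. Red triangles mark the miR-182-5p match in Cebpa, Klf15, Ebf1, Ebf2 and Cebpd, and the green square marks the miR-30 match in Ebf2.

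As C/EBP proteins are known to act on the Pparg promoter that gives the PPARγ2 transcript, the promoters of the 10 genes were searched for their motif. RefSeq windows of GRCm38.p6, from 250 bases before to 50 bases after a start site, were matched for 8 of the 10 genes, with 13 windows in all, and those of Cebpd and Ebf2 were not matched. The C/EBP motif TTGCNNAA, searched on both strands, was present in 2 of the 13 windows, the most downstream start of Pparg and 1 start of Zfp423, and in 10.8% of all 32851 windows. Its letters overlap those of the miR-182 seed match. The 250 bases before the Pparg start, at chr6:115421816-115422065 on the plus strand, hold it in capitals, with its first letter at positions -215 and -16 from the start.
Pparg: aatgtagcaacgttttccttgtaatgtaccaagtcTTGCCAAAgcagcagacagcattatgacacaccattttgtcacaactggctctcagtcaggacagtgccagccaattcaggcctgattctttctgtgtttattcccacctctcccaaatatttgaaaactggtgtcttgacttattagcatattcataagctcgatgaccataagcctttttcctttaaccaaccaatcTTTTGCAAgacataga

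The palindromic EBF motif was in none of the 13 windows and in 0.904% of all windows. The letters GGGCGG of a GC box, to which factors of the KLF and SP type bind, were in 8 of the 13 and in 35.7% of all windows, and the nuclear receptor element AGGTCA was in 4 of the 13 and in 16.3%. Nothing about binding follows from these matches.

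Genes that PPARγ and C/EBPα are known to control were examined as a readout of the program. The list was chosen with earlier results of these data known. Of 32 tested, 22 fell, 5 rose and 5 did not pass the test, so 84.4% passed, beside 46.7% of all genes tested. The median log2 fold change was -0.31 beside -0.0043 for all genes tested. Of the 32, 8 fell by 1.5-fold with an adjusted p under 0.05, as did 719 of all 13117 genes tested. Retn (resistin) fell from 229.7 ± 7.88 CPM (SD, n = 3) to 128 ± 10.7 CPM (SD, n = 3), with a log2 fold change of -0.85 (edgeR adjusted p = 6.11e-09). Pnpla2 and Mgll, which encode the lipases ATGL and monoglyceride lipase, fell by 0.69 and 0.70 on the log2 scale (edgeR adjusted p = 1.71e-09 and 7.39e-09). Plin4, Angptl4 and Plin5 rose instead, by 0.50, 0.33 and 0.31 on the log2 scale (edgeR adjusted p = 1.63e-08, 2.86e-06 and 0.00102). The first and last of these encode lipid droplet coat proteins and Angptl4 an inhibitor of lipoprotein lipase. Plin4 had 737, 723 and 755 CPM in the control samples and 1009.9, 1052 and 1067 CPM in the miR182 samples.

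Among 15 other regulators of fat cell formation, 7 fell and 2 rose. Thus 60% passed the test, beside 46.7% of all genes tested, and 7.45% of all genes tested also passed 1.5-fold. Nr1h3, which encodes the oxysterol receptor LXRα, a partner of RXR, had 62.5, 56.8 and 60 CPM in the control samples and 25.2, 26.6 and 29.9 CPM in the miR182 samples. It fell by 1.13 on the log2 scale (SE 0.06, edgeR adjusted p = 3.14e-09), a larger change than that of any of the 10 factors, and was the 1 gene of this list past 1.5-fold. Xbp1, a factor of the secretory stress response, and Nfia, a factor of brown fat, each fell by 0.27 (edgeR adjusted p = 4.11e-06 and 2.59e-05). Zfp467 and Klf6 rose by 0.16 and 0.081 (edgeR adjusted p = 0.0263 and 0.0377), and both calls were lost in DESeq2 (adjusted p = 0.0652 and 0.0574).

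Of 16 inhibitors of fat cell formation tested, 5 fell, 11 did not pass the test and none passed it as higher. The 31.2% that passed is below the 46.7% of all genes tested, and 1 of the 5, Zfp521, is also among the relatives above. Irf4, a lipolysis-promoting repressor of fat cell formation, fell from 10.4 ± 1.1 CPM (SD, n = 3) to 5.85 ± 0.639 CPM (SD, n = 3), with a log2 fold change of -0.83 (edgeR adjusted p = 1.6e-05). Foxo1, the insulin-regulated factor that represses Pparg, had 37.7, 39.2 and 40.5 CPM in the control samples and 27.9, 29.5 and 28.2 CPM in the miR182 samples (log2 fold change -0.46, edgeR adjusted p = 4.25e-06). Dlk1, the preadipocyte factor also called Pref-1, fell by 0.40 (edgeR adjusted p = 2.83e-05). The progenitor factor Dlk1 and the late factor Cebpa were thus both lower in the miR182 samples.

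Among 18 coregulators through which PPARγ and its relatives act, 6 rose and 5 fell, so 61.1% passed the test, beside 46.7% of all genes tested. The coactivator Ncoa3 rose by 0.29 and the corepressor Ncor1 rose by 0.17 on the log2 scale (edgeR adjusted p = 2.77e-05 and 0.000328). Ppargc1b, which encodes the coactivator PGC-1β, had 11.7, 12.3 and 13.1 CPM in the control samples and 6.1, 7.78 and 8.22 CPM in the miR182 samples and fell by 0.75 (edgeR adjusted p = 3.05e-05). Med1, the mediator subunit that contacts PPARγ, and Lpin1, a phosphatidate phosphatase that also acts in the nucleus, fell by 0.20 and 0.28 (edgeR adjusted p = 0.000368 and 0.000531).

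Of 10 immediate early genes, which respond to serum and handling, 7 rose and 2 fell, with a median log2 fold change of 0.24. The share that passed was 90%, beside 46.7% of all genes tested. Fos, Ier2 and Nr4a1 rose by 0.42, 0.23 and 0.38 (edgeR adjusted p = 9e-05, 0.000332 and 0.000342). Zfp36 and Dusp1 fell by 0.26 and 0.15 (edgeR adjusted p = 0.000421 and 0.0237). The early factors Cebpb, Cebpd and Klf4 respond to some of the same stimuli, and the part of such a response in their values was not tested.

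**Figure D5:**
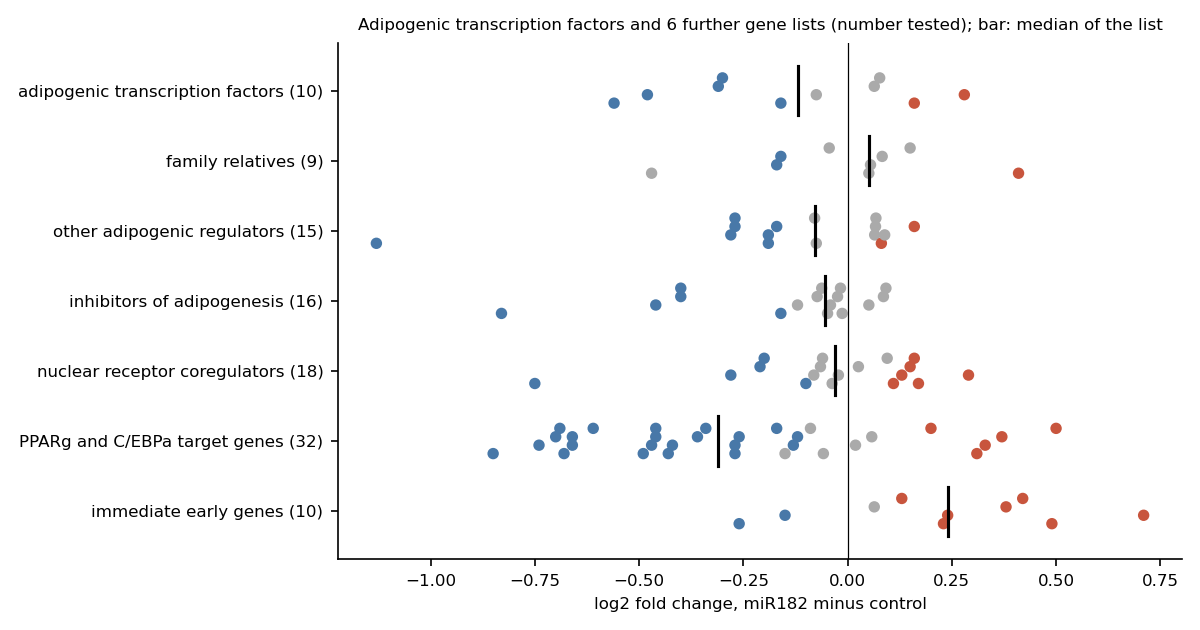
Log2 fold change, miR182 minus control, of every tested gene in the 10 factors and 6 further lists, with the number tested in brackets and the median of each list as a black bar. Points are red where a gene rose, blue where it fell and grey where its adjusted p was not under 0.05. The PPARγ and C/EBPα target genes reach from -0.85 to 0.50 with a median of -0.31, and the immediate early genes have a median of 0.24.

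The cells carried markers of fat cells and some of those listed for preadipocytes and fibroblasts. The summed level of 6 fat cell markers was 6608 to 6943 CPM in the control samples and 4488 to 5069 CPM in the miR182 samples, and 4 of the 6 fell, while Plin1 and Lipe did not pass the test. All 6 are also among the 32 target genes above, so this sum is not a separate observation. Of 14 preadipocyte and fibroblast markers, 13 were tested and 8 fell and 2 rose, with sums of 43427 to 45177 and 38733 to 39861 CPM. Most of each sum came from the collagen genes Col1a1 and Col3a1, with control means of 19248 and 19711 CPM. Most of the difference between these sums lay in Col3a1, whose mean went from 19711 to 15750.0 CPM. Other markers of this list were near the floor. Pi16, Icam1 and Cd55 had control means of 2.37, 2.63 and 2.69 CPM and miR182 means of 1.38, 1.6 and 1.83 CPM, and Dpp4 had 2 to 6 reads per sample. Pdgfra fell by 0.86 and Cd34 by 1.53 on the log2 scale (edgeR adjusted p = 2.87e-11 and 1.71e-09), Thy1 and Vim rose by 0.19 and 0.12 (edgeR adjusted p = 0.000347 and 0.00704), and Pdgfrb and Col1a1, at 0.056 and -0.046, did not pass the test. Smooth muscle markers summed to 3446 to 3619 CPM in the control samples and 4123 to 4489.9 CPM in the miR182 samples, with 3 of 4 higher. The brown fat markers summed to 25.1 to 27.7 and 19.1 to 20.3 CPM (Cox7a1 fell, 1 of 3 tested), and Ucp1 had at most 6 reads in a sample. Beside these counts of markers that rose or fell, 46.7% of all genes tested passed in either direction.

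Markers of other cell types were low. Macrophage markers summed to 14.8 to 15.8 CPM in the control samples and 12.5 to 16 CPM in the miR182 samples (1 of 4 tested fell), and endothelial markers to 8.93 to 10 and 5.47 to 6.45 CPM (1 of 4 fell). Skeletal muscle markers summed to 27.9 to 29.5 and 38.3 to 41.7 CPM (1 of 4 rose, with Ckm, Myh4 and Myod1 at 0), and mesothelial markers to 23.4 to 24.5 and 35.3 to 46.9 CPM (1 of 2 rose). Epithelial, lymphocyte and erythroid markers stayed under 1 CPM in sum, with Krt8, Krt18, Krt14, Hba-a1, Hba-a2 and Hbb-b1 at 0. For the calls in these lists, the share over all genes tested was 46.7%. The part of any of these cell types in the values of the 10 factors was not tested.

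The genes whose profile over the 6 samples lay nearest to that of Pparg, by Euclidean distance between centred log2 CPM values, were Prdx3, C3 and Figf at 0.027, 0.044 and 0.045, against a median distance of 0.481 over 13116 genes. For Cebpa they were Cradd, Cpz and Zfp953 at 0.077, 0.084 and 0.094, against a median of 0.759. Their log2 fold changes were -0.29, -0.30 and -0.30 for the first group and -0.53, -0.58 and -0.59 for the second. With 6 samples in 2 groups, this nearness rests mostly on the difference between the groups.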

How the data were processed

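For each sample the authors deposited a list of raw, unscaled read counts by gene symbol, which their processing notes tie to bcl2fastq, TopHat2, HTSeq and the mm9 build. The annotation and the strand setting are not given in the sources used here. Tally lines such as reads outside genes (12.7% to 13% of uniquely aligned reads) were left out. Counts were tested in R 4.3.3 with edgeR 4.0.16 (TMM, minimum count 10, quasi-likelihood test, two-sided) and Benjamini-Hochberg adjustment over 13117 genes. The limit of 1.5-fold follows the study. CPM use TMM-scaled library sizes, and 0.5 was added to counts for ratios. GENCODE M21 (GRCm38) held 22150 of the 22609 symbols, 1904 of them as older symbols. Replicates of a group differed by more than sampling noise (chi-square per degree of freedom 2.08 to 6.9), most for miR182 sample 1, and the first principal component (65.1% of the variance) separated the groups. Depth limits the precision of low genes.

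The members and lists were chosen with earlier results of these data known. Named genes are the 10 factors, their relatives, the 3 genes of smallest p in each direction of each list, markers, and the 3 nearest profiles. Some genes that this rule names are not reported here. On simulated counts of this comparison with 13117 genes, edgeR recovered 83 of 100 genes changed by 0.5 and 95 of 100 changed by 1 on the log2 scale. Of the 10 factors all but Cebpa changed by less than 0.5, with a median of 0.22, and recovery of such smaller changes was not simulated. Alternatives were DESeq2 1.42.0, limma-voom 3.58.1, other scaling factors and filters, the replicate number as a block, and leaving out each sample. The longest transcript as the length and the set of genes in each family were chosen after seeing the data. Python 3.11.15 was used for tables and figures.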

Additional observations from a re-analysis of the deposited data

How the results depend on the processing

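Cebpa, Pparg, Klf15, Ebf1 and Cebpd kept their direction and an adjusted p under 0.05 in each of the 13 alternative fits, and Zfp423 stayed above it in each. Leaving out 1 sample gave log2 fold changes from -0.61 to -0.49 for Cebpa, -0.32 to -0.28 for Pparg, -0.52 to -0.42 for Klf15, -0.31 to -0.27 for Ebf1, 0.23 to 0.33 for Cebpd, -0.015 to 0.14 for Cebpb (-0.015 without control sample 2, -0.0064 without miR182 sample 2), -0.21 to -0.12 for Klf4, 0.11 to 0.20 for Ebf2, 0.06 to 0.11 for Zfp423 and -0.11 to -0.046 for Rxra. Without miR182 sample 2, 1 of the 10 factors, Cebpa, passed 1.5-fold, so leaving out 1 sample gave 0 to 1. With the replicate block, the log2 fold change of Ebf2 stayed 0.16 with an adjusted p of 0.0675 and the number of factors that rose was 1, as it was at the low end (1 to 2) without 1 sample. Same-numbered samples did not deviate together over all genes tested (r = -0.185, -0.0436 and -0.0785). No pairing by number was thus seen, though so few pairs cannot exclude one.

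Leaving out 1 sample gave 1 to 2 relatives higher and 1 to 2 lower, 0 to 3 other regulators higher, 3 to 5 coregulators lower, 1 to 2 immediate early genes lower and 1 to 2 of them past 1.5-fold. DESeq2 gave 1 relative lower, 0 other regulators higher and 3 coregulators lower. Upper-quartile factors and the replicate block each gave 1 other regulator higher. The log2 fold change of Rxrg, which did not pass the test, ranged from -0.16 to 0.057, the latter without miR182 sample 3. Requiring an A after the seed match left 2 factors with a match for both the 8-base and the shorter form, which 5.25% and 14.3% of the 12498 genes hold. With the longest transcript as the length, Rxra took place 3 and Cebpb place 4 in the order of control levels, Klf15 and Cebpd took places 7 and 8 in the miR182 samples, and the control levels of Klf15 and Ebf1 went from 8.84 to 16 and from 10.9 to 17.8 CPM per kb. With that length, or over Cebpa, Cebpb and Cebpd alone or Ebf1 and Ebf2 alone, the shares of Cebpa and Ebf1 still did not overlap between the groups. Fits without 1 sample rest on fewer samples, and other causes were not tested.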
